A study of Mus musculus with 18 samples.

Results

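The comparison asks whether the effect of the Hspa9 genotype on gene expression was the same in cultured memory CD8+ T cells as in cultured effector CD8+ T cells. For each gene, the log2 fold change of cKO over WT in memory cells was set against the log2 fold change of cKO over WT in effector cells, and the memory value minus the effector value is called the difference below. It rests on 12 of the 18 libraries of the series, in 4 groups of 3: effector WT, effector cKO, memory WT and memory cKO. The 2 tables of normalised reads shared 22310 gene identifiers, of which 15395 had at least 10 normalised reads in at least 3 of the 12 libraries and were tested.

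All cells derived from naive CD8+ T cells of the lymph nodes and spleen of mice aged 8 weeks that were wild type (WT) or labelled as conditional knockouts (cKO) of Hspa9, with no treatment listed. The naive cells had been turned into effector or memory cells in culture. Messenger RNA was captured by its poly-A tail and sequenced. The labels name neither the Cre driver nor the deleted part of the gene, and do not tie the 3 replicates in a group to different mice, so the errors and p-values measure the spread between these libraries, which may be technical.

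GRP75, the product of Hspa9, is an HSP70 chaperone of the mitochondrial matrix that pulls imported proteins across the inner membrane and helps them fold. Cells with disturbed mitochondria often switch on the integrated stress response, in which translation is dampened and the transcription factor ATF4 raises genes for amino acid transport, amino acid synthesis and tRNA charging. Effector CD8+ T cells divide fast and carry cytotoxic granules and inflammatory chemokines, whereas memory cells divide slowly and keep the receptor for the survival cytokine interleukin 7.

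Library totals over listed genes ran from 14771251 to 17664162 recovered reads, and the common coefficient of variation between replicates was 5.52% in effector and 9.98% in memory cells. Markers fixed for the cell type fitted the labels: Cd3e, Cd8a, Cd8b1 and Trac were present in all 12 libraries, Gzmb and Mki67 had higher levels, scaled to library totals, in every effector than in every memory library, and Ccr7, Il7r and Tcf7 the reverse. The normalised reads were scaled within each table by the authors, so a level in one subset is not compared with a level in the other below, and each effect is taken within its own table. In bulk RNA, a change in how many cells of a kind are present and a change in RNA per cell cannot be told apart.

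The targeted gene went against its label. Hspa9 (ENSMUSG00000024359, chromosome 18, 35070467 to 35087410) had 2001, 2138 and 2139.99 normalised reads in the effector WT libraries and 2168, 2450.1 and 2401 in the effector libraries labelled cKO. In memory cells, Hspa9 had 3916, 4154 and 4053 normalised reads in WT and 5778, 5669 and 5463 in the libraries labelled cKO. In both subsets every library labelled cKO lay above every WT library. The log2 effect was 0.16 in effector and 0.48 in memory cells, a difference of 0.32 (SE 0.08, adjusted p = 0.016) by limma, Benjamini-Hochberg adjusted over all genes tested, as are all adjusted p-values below. That call was lost without memory WT replicate 1, where the adjusted p was just above the threshold of 0.05. An exact two-sided permutation of the genotype labels within each subset, whose null is no effect in either subset, gave p = 0.15. With both effects of the same sign, the observed difference could not be the most extreme one, so the floor of 0.005 was out of reach. This permutation therefore does not decide whether the effects differ. Gene-level reads hold no exon detail, so whether the deleted part was read cannot be seen. The word cKO is used below as a library's label.

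Of the 15395 genes tested, 1707 (11.1%) had a genotype effect that differed between memory and effector cells at an adjusted p under 0.05. The effect was higher in memory cells for 1055 genes (6.85%) and lower for 652 genes (4.24%). With the reads scaled to library totals in place of the authors' scaling, these counts were 1428 and 434, and the median difference over all genes moved by 0.080. The difference was at least 2-fold for 449 of the higher and 114 of the lower genes, and at least 4-fold for 181 and 32. Taken alone, 2774 genes (18.0%) passed in effector cells, 1514 up (9.83%) and 1260 down (8.18%), and 2800 (18.2%) passed in memory cells, 1782 up (11.6%) and 1018 down (6.61%). Across the 15395 genes the 2 effects had a Pearson r of 0.504 and a Spearman rho of 0.301, which describes genes and not replicates.

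The called genes were sorted by which of the effects passed. For 728 genes the effect passed in memory cells and not in effector cells, 460 with a higher and 268 with a lower effect in memory. For 447 genes it passed in effector cells and not in memory cells, 255 higher and 192 lower. The effect passed in both subsets with opposite signs for 154 genes (1.00%), of which 86 (0.559%) fell in effector and rose in memory cells, and 68 (0.442%) rose in effector and fell in memory cells. The count of 154 was 96 without memory WT replicate 1, 88 without memory WT replicate 3 and 97 in the fit of all 18 libraries. It passed in both with the same sign and was larger in memory cells for 212 genes and larger in effector cells for 27. The remaining 139 passed for the difference and for neither effect alone.

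**Figure D1:**
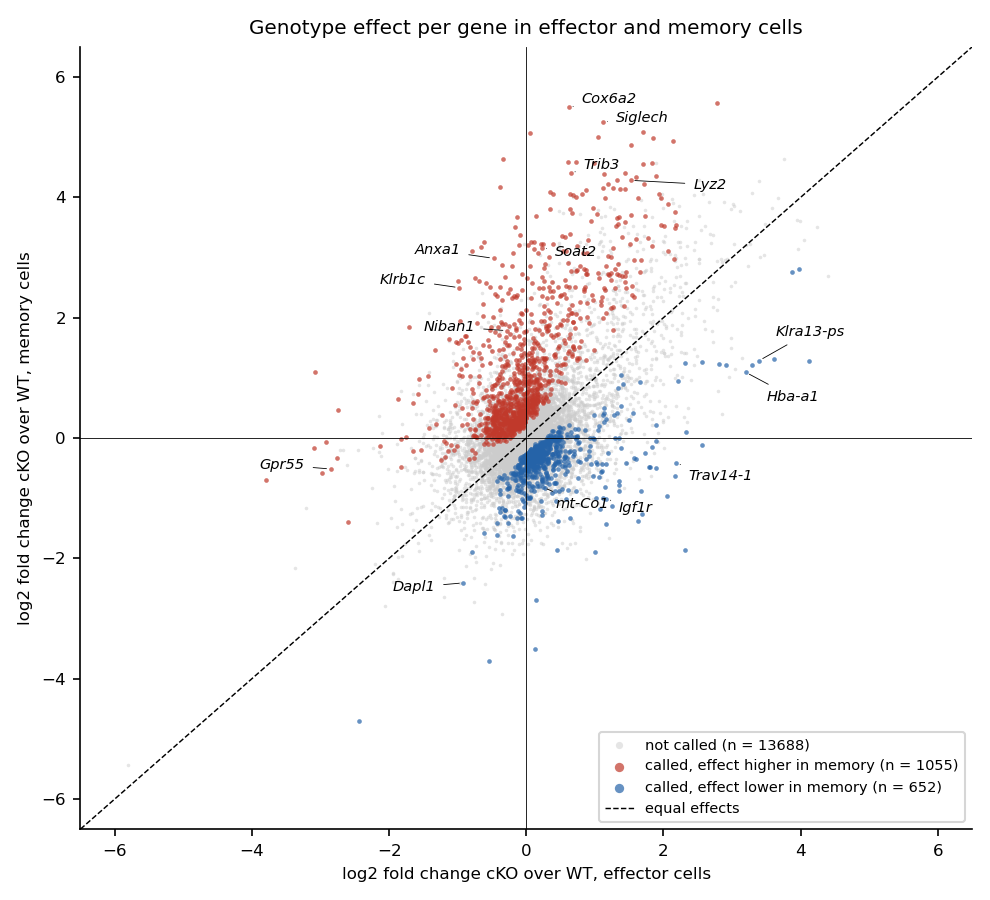
Each point is 1 of 15395 genes, with the log2 fold change of cKO over WT in effector cells on the horizontal axis and in memory cells on the vertical axis. Red points (1055 genes) had a higher effect in memory cells, blue points (652 genes) a lower one, grey points were not called, and the dashed line marks equal effects.

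Genes of the ATF4 and integrated stress response list had the highest share of members with a higher effect in memory cells among the 40 pathway lists. Of 43 tested members, 33 had a higher effect in memory cells and 10 were not called, against 6.85% of all genes called higher, and the median difference was 0.70 against -0.013 over all genes. In memory cells 38 of the 43 rose in cKO, against 11.6% of all genes, with a median log2 effect of 0.72. In effector cells 8 rose and 3 fell, against 9.83% and 8.18% of all genes, with a median of 0.05.

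Trib3, a pseudokinase gene induced by ATF4, had 13.5, 15.6 and 25.2 normalised reads in effector WT and 28.4, 25.4 and 30.4 in effector cKO libraries. In memory cells Trib3 had 25.7, 38.6 and 25.00 in WT and 638, 579 and 706 in cKO libraries. The memory cKO libraries stood far above memory WT, while in effector cells the lowest cKO and the highest WT library nearly met. The ratio of means was 21.6 in memory cells, and the difference of the log2 effects was 3.76 (SE 0.34, adjusted p = 7.9e-07). Atf5, which encodes a transcription factor of mitochondrial stress, had 92.6, 97.4 and 92.3 normalised reads in memory WT and 703, 626 and 811 in memory cKO, while effector libraries held 91.4, 108 and 95.95 in WT and 121, 114 and 122 in cKO. Its effect passed in memory cells only (2.90, against 0.27 in effector cells), with a difference of 2.63 (SE 0.17, adjusted p = 1.7e-08).

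Amino acid transporter genes of the list were uneven. The effect was higher in memory cells for Slc1a4 (3.68), Slc6a9 (2.80), Slc7a3 (2.06), Slc7a5 and Slc7a1 (0.57), while Slc3a2 (0.17), Slc1a5 (0.03) and Slc38a2 (-0.21) were not called. Slc1a4, Slc6a9 and Slc7a3 had few normalised reads in WT, with means of 10.8, 0.67 and 6.05 in effector and 14.4, 2.38 and 16.6 in memory cells. The sizes of these differences are therefore uncertain. Slc7a5, the large neutral amino acid transporter, stood at 919.7 ± 71.5 normalised reads in memory WT and 2487 ± 152 in memory cKO (SD, n = 3), and at 718 ± 26.99 and 759 ± 46.5 in effector cells. The memory groups did not overlap, the effector groups did, and the difference was 1.36 (SE 0.10, adjusted p = 8.7e-08). Among tRNA charging genes, Aars, the alanyl-tRNA synthetase gene, rose from 999.95 ± 25.8 to 2129 ± 106 in memory cells and had 2019 ± 61.7 in WT and 1930.5 ± 41.9 in cKO effector cells, a difference of 1.15 (SE 0.08, adjusted p = 2.9e-08). All other tested aminoacyl-tRNA synthetase genes of the list also passed, from Cars at 1.13 to Tars at 0.28. Of the serine and one-carbon genes, Mthfd2 (0.98), Shmt2 (0.85), Phgdh (0.74) and Psat1 (0.62) passed, whereas Mthfd1l (0.10) and Psph (0.02) did not. Asns, the asparagine synthetase gene, passed (1.61).

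Niban1, a gene raised by endoplasmic reticulum and amino acid stress, moved in opposite directions. It had 3513, 3370.5 and 3292 normalised reads in effector WT and 2738, 2733 and 2909 in effector cKO, and 424, 459 and 484 in memory WT and 1398, 1712 and 1617 in memory cKO libraries. No library of one genotype overlapped the other in either subset, with cKO below WT in effector and above WT in memory cells. The log2 effects were -0.28 in effector and 1.79 in memory cells, a difference of 2.07 (SE 0.10, adjusted p = 7.5e-10). The 10 tested members that were not called had differences from -0.21 for Slc38a2 to 1.59 for Pycr1. Atf4 itself, whose protein is set mainly by translation, was among them at 0.23 (adjusted p = 0.14). Its log2 effect passed in memory cells (0.32) and not in effector cells (0.09).

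As the members moved together, their promoters were searched for TGATGNAA, the core of the C/EBP-ATF response element to which ATF4 binds as a dimer with C/EBP proteins, on both strands of the 250 bases before each annotated gene start. It was present in 8 of the 36 list members with a promoter in the reference table (22.2%), in 254 of the 10093 tested genes with one (2.52%) and in 1056 of all 27025 genes of the table (3.91%). Among the genes with a higher effect in memory cells it was present in 40 of 806 (4.96%). These 40 include members of the ATF4 list, such as Nupr1, Atf3 and Asns, so that share is not independent of the list, and it was not tested. The list was drawn up as ATF4 and stress response genes, so its higher share follows from that choice and is no finding of these data. The 8 members were Nupr1, Atf3, Asns, Pycr1, Aars, Herpud1, Gars and Tars, of which Pycr1 was not called. The 4 with the largest called differences are shown as RefSeq sequence of GRCm38.p6, 5′ to 3′ on the gene's strand and ending at the base before the start, with the match in capitals; the deposited tables use GRCm39. A match shows only that these letters are in the window.
Nupr1, chr7:126625471-126625720, minus strand: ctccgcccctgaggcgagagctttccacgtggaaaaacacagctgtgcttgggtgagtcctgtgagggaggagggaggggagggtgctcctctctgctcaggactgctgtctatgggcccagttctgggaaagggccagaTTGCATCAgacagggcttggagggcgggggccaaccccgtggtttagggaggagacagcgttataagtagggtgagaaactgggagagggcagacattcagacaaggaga
Atf3, chr1:191183334-191183583, minus strand: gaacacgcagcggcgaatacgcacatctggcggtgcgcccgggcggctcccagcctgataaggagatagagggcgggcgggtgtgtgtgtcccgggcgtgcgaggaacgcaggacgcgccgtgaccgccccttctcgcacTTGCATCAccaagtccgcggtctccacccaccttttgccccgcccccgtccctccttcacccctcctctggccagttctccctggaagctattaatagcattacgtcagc
Asns, chr6:7693210-7693459, minus strand: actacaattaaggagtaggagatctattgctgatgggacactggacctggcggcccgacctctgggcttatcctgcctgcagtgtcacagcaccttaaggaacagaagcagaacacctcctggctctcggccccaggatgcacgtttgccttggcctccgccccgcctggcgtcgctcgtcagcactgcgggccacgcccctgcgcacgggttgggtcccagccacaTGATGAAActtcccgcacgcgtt
Aars, chr8:111033592-111033841, plus strand: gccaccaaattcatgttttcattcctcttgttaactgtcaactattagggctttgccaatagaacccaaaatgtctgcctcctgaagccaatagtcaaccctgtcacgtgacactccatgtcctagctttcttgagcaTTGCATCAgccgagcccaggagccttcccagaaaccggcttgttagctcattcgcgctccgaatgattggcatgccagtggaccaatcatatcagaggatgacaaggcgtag
The match began 110 bases before the start in Nupr1 and Atf3, 112 before it in Aars and 23 before it in Asns. Of these, Nupr1, a small stress-induced chromatin protein gene, had 0.00, 2.03 and 0.00 normalised reads in memory WT and 34.1, 18.3 and 19.7 in memory cKO libraries, and 2.08, 5.19 and 3.88 and 3.04, 6.36 and 6.08 in effector cells. Its difference of 3.66 therefore rests on few reads in 3 of the 4 groups. Atf3, a stress and immediate early transcription factor gene, rose in both subsets, by 0.89 in effector and 2.73 in memory cells, a difference of 1.84 (SE 0.19, adjusted p = 3.8e-06).

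**Figure D2:**
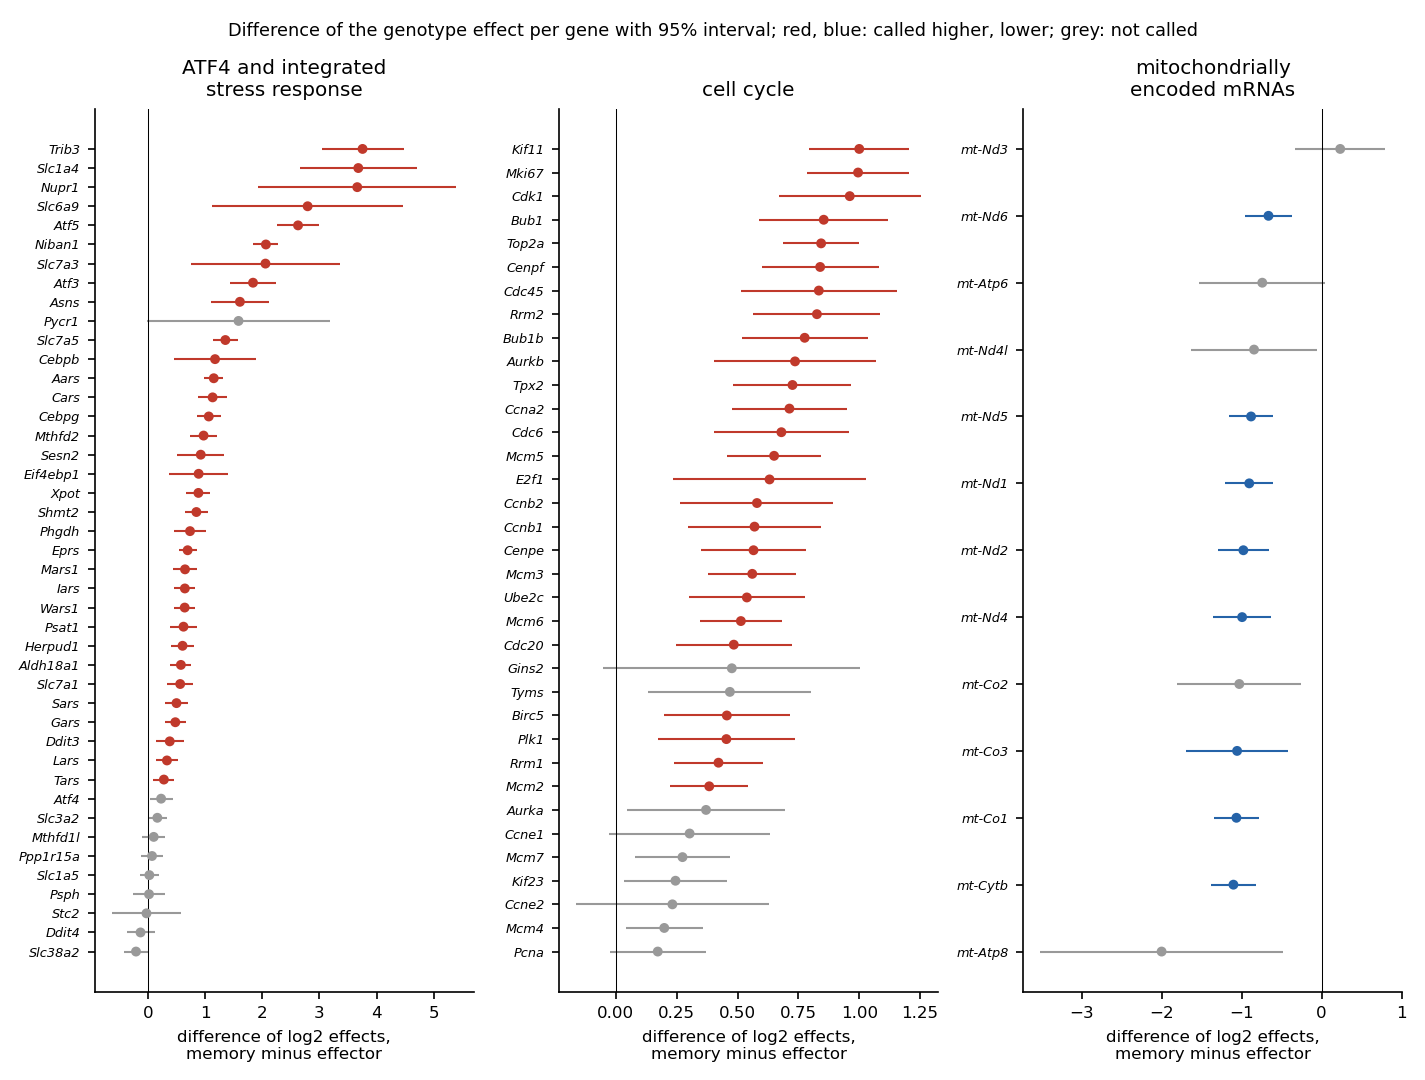
The difference of the log2 genotype effect, memory minus effector, with its 95% confidence interval from limma is plotted on the horizontal axis for every tested member of 3 gene lists. Red members were called higher, blue lower and grey not called: 33 of 43 ATF4 list members and 26 of 35 cell cycle genes are red, and 8 of 13 mitochondrially encoded mRNAs are blue.

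mRNAs encoded by the mitochondrial genome showed the reverse direction. Of the 13, 8 had a lower effect in memory cells and 5 were not called, against 4.24% of all genes called lower, and the median difference was -0.98. In memory cells 11 of the 13 fell in cKO, against 6.61% of all genes, and in effector cells 5 rose, against 9.83% of all genes. mt-Co1, which encodes the catalytic subunit of cytochrome c oxidase, had 156240.00, 145582 and 153108 normalised reads in effector WT and 172591, 179874 and 187800.00 in effector cKO libraries. In memory cells mt-Co1 had 182047, 197854 and 183343 in WT and 123495, 102584 and 94855 in cKO libraries. The cKO libraries were thus above all WT libraries in effector cells and below all WT libraries in memory cells, with memory cKO replicate 1 nearest to WT. The difference was -1.07 (SE 0.13, adjusted p = 2.6e-05), and that of mt-Cytb, the cytochrome b gene of complex III, was -1.10 (SE 0.14, adjusted p = 2.3e-05).

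The 5 members not called for the difference were mt-Atp6, mt-Atp8, mt-Co2, mt-Nd3 and mt-Nd4l. Of these, mt-Nd3 had a positive difference (0.23) and the others lay between -2.004 and -0.74. Their group means were at most 1067 normalised reads, while those of called members other than mt-Co3 were at least 5086. The value of -2.004 was that of mt-Atp8, with 26.8, 28.4 and 121 in memory WT and 22.4, 10.6 and 8.43 in memory cKO. Its size leans on 1 memory WT library. Reads of the mitochondrial chromosome made up 1.86% ± 0.060 of effector WT and 2.17% ± 0.049 of effector cKO libraries (SD, n = 3). In memory cells they made up 2.41% ± 0.068 in WT and 1.55% ± 0.268 in cKO, where the single libraries had 1.85%, 1.49% and 1.33%. Every effector cKO library lay above every effector WT library, and every memory cKO library lay below every memory WT library. The effect on the log2 share, memory minus effector, was -0.87. An exact two-sided permutation gave p = 0.005, the smallest that permuting genotype within each subset can give. Its null is no effect in either subset, so this p does not by itself decide whether the effects differ. Most mitochondrial mRNAs carry a poly-A tail, and this capture reads them by that tail.

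Few nuclear genes of the same complexes were called for the difference. Among 76 nuclear respiratory chain and ATP synthase genes, 1 had a higher (1.32%) and 2 a lower effect (2.63%) in memory cells. Among all genes, 6.85% were called higher and 4.24% lower. The median difference of the list was -0.034. Without memory cKO replicate 1, 8 had a lower effect and the median was -0.147. The exception on the higher side was Cox6a2, the muscle-type form of a cytochrome c oxidase subunit. It had 8.93, 15.2 and 9.61 normalised reads in memory WT and 646, 522 and 464 in memory cKO, against 11.4, 10.4 and 6.78 and 13.2, 14.5 and 17.2 in effector WT and cKO. The memory cKO libraries stood far above memory WT, whereas the effector genotypes lay close together, and the difference was 4.87 (SE 0.40, adjusted p = 2.1e-07). Ndufb6 (-0.54) and Cox7a2l (-0.38), subunit genes of complex I and of the respiratory supercomplex, were the lower ones.

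Of 77 mitochondrial ribosome genes and 23 mitochondrial protein import genes, 0 were called by limma, edgeR or DESeq2. At an unadjusted limma p under 0.05, 3 genes of the first list and 1 of the second had a lower effect in memory cells, and the median differences were 0.060 and -0.057. Among 22 mitochondrial chaperones and proteases, 2 were higher (9.09%) and 1 lower (4.55%), near the 6.85% and 4.24% of all genes. Hspd1, the HSP60 chaperonin gene, had log2 effects of -0.21 in effector and 0.05 in memory cells and a difference of 0.26 (SE 0.08, adjusted p = 0.039), a call lost under 12 of 23 alternative settings. Mipep, the intermediate peptidase of the matrix, had a difference of 0.76 (SE 0.21, adjusted p = 0.023), and Dnajc15, a co-chaperone of the import motor, one of -0.56 (SE 0.11, adjusted p = 0.0025). Of 34 proteasome genes, 0 were called by limma, edgeR or DESeq2, 0 had an unadjusted limma p under 0.05, and the median difference was 0.0089. Among 79 cytosolic ribosome genes 1 was called, lower, with a median of -0.16, but without memory cKO replicate 1 the count was 41.

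Cell cycle genes fell in effector cKO cells, and some rose in memory cKO cells. Of 35 tested, 26 were called higher for the difference, against 6.85% of all genes, and 9 were not called, with a median of 0.57. In effector cells 33 of the 35 fell in cKO, against 8.18% of all genes, with a median log2 effect of -0.38. In memory cells 7 of the 35 rose, against 11.6% of all genes, with a median of 0.22. When the naive libraries were added to the fit, 18 libraries in all, 17 cell cycle genes were called higher.

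Mki67, the proliferation marker gene, had 21561, 19897 and 20168 normalised reads in effector WT and 14561, 14172 and 14891 in effector cKO libraries. In memory cells Mki67 had 1951, 1817 and 1889 in WT and 2329.7, 2919 and 2770.3 in cKO libraries. The groups did not overlap in either subset, with cKO lower in effector and higher in memory cells. The difference was 0.99 (SE 0.10, adjusted p = 2.4e-06). Top2a, the topoisomerase of chromosome separation, and Kif11, the spindle motor gene, likewise fell in effector and rose in memory cells, with log2 effects of -0.46 in effector and 0.38 in memory cells and of -0.45 in effector and 0.55 in memory cells. Their differences were 0.84 (SE 0.07, adjusted p = 5.6e-07) and 1.00 (SE 0.10, adjusted p = 1.7e-06). Cenpf, a kinetochore gene, fell in effector cells (-0.48) and had 0.36 in memory cells, where it did not pass.

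Regulators of G1 were mixed, with 4 of 15 higher (26.7%) and 2 lower (13.3%), against 6.85% and 4.24% of all genes. Cdk6, a kinase that drives G1, rose in both subsets and more in memory cells (0.95 against 0.16), a difference of 0.79 (SE 0.11, adjusted p = 1.1e-04). The CDK inhibitor gene Cdkn1a also had a higher effect in memory cells, from 49.9 ± 11.3 normalised reads in WT to 138 ± 13.2 in cKO, a difference of 1.22 (SE 0.23, adjusted p = 0.0013). That call was lost in the fit of all 18 libraries (adjusted p = 0.096). Cdkn1b, which encodes the inhibitor p27, fell in memory cells (-0.34) and had 0.11 in effector cells, a difference of -0.46 (SE 0.07, adjusted p = 4.8e-04). Cdkn2c, another inhibitor gene, had a difference of 0.64 (SE 0.13, adjusted p = 0.0033).

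Of 23 tested effector and cytotoxic genes, 14 rose and 3 fell in memory cKO cells, against 11.6% and 6.61% of all genes, and 9 rose and 7 fell in effector cells, against 9.83% and 8.18%. For the difference, 11 were higher and 1 lower, against 6.85% and 4.24% of all genes, with a median of 0.51. Fasl, the death ligand gene, had 162, 156 and 142 normalised reads in memory WT and 865, 843 and 808 in memory cKO libraries. In effector cells Fasl had 2708, 2576 and 2613 in WT and 3606, 3272 and 3153 in cKO. It was higher in every cKO library of both subsets, 5.46-fold in memory and 1.27-fold in effector cells by means, with a difference of 2.10 (SE 0.10, adjusted p = 2.9e-10).

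A pair of transcription factor genes of terminal effector cells were among the 11. Zeb2 fell in effector cells, from 7449 ± 182 to 6291 ± 161 normalised reads, and rose in memory cells, from 85.3 ± 14.7 to 291 ± 76.2, a difference of 1.98 (SE 0.21, adjusted p = 3.8e-06). Tbx21, which encodes T-bet, had log2 effects of -0.09 in effector and 0.93 in memory cells, the memory effect alone passing, and a difference of 1.03 (SE 0.11, adjusted p = 5.5e-06). Gzmb, the granzyme B gene, had a difference of 0.98 (SE 0.12, adjusted p = 1.7e-05) and Cx3cr1, a fractalkine receptor gene of cytotoxic cells, one of 1.25 (SE 0.13, adjusted p = 2.7e-06); the call of Cx3cr1 was lost in the fit of all 18 libraries. Prf1, the perforin gene, was the 1 lower member, with log2 effects of 0.10 in effector and -0.42 in memory cells and a difference of -0.52 (SE 0.10, adjusted p = 0.0014). Granzyme and perforin genes thus did not all move one way.

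Among cytokine and chemokine genes, 10 of 18 tested had a higher effect in memory cells, against 6.85% of all genes, and 8 were not called. The median difference was 1.03. Ccl5, a chemokine that draws T cells and monocytes, had 64489, 65246 and 65842 normalised reads in effector WT and 59705, 58954 and 54722 in effector cKO. In memory cells Ccl5 had 3572, 3778 and 3597 in WT and 14211, 10762 and 10269.9 in cKO libraries. All cKO libraries were below WT in effector cells and above WT in memory cells, and the difference was 1.85 (SE 0.13, adjusted p = 2.3e-08). Ccl4 and Ccl3, a pair of inflammatory chemokine genes, had log2 effects of 1.49 and 1.83 in memory cells and of 0.08 and -0.15 in effector cells, where neither passed. Ccl9, a myeloid-attracting chemokine gene, crossed from -0.75 to 2.67, a difference of 3.42 (SE 0.42, adjusted p = 2.1e-05). Ifng, the interferon-γ gene, had a difference of 1.03 (SE 0.14, adjusted p = 7.0e-05).

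Inhibitory receptor and exhaustion genes had 12 of 21 members higher and 3 lower, against 6.85% and 4.24% of all genes, with a median difference of 0.58. In the fit of all 18 libraries the higher count was 7. Havcr2, which encodes the inhibitory receptor TIM-3, had 1649, 1534 and 1575 normalised reads in effector WT, 1591, 1568 and 1593 in effector cKO, 27.9, 39.6 and 31.7 in memory WT and 153, 146 and 142 in memory cKO. The effector groups overlapped and the memory groups did not. Its difference was 2.14 (SE 0.15, adjusted p = 2.9e-08), a call lost in the fit of all 18 libraries. Cd160, Lilrb4a and Lilrb4b, 3 further inhibitory receptor genes, rose in both subsets and more in memory cells, with differences of 1.05, 1.31 and 1.18. Pdcd1, the PD-1 gene, fell in effector cells (-1.06) and had -0.19 in memory cells, so that its higher difference (0.86) was no rise in memory cells. Ctla4, Btla and Vsir were the 3 lower members.

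**Figure D3:**
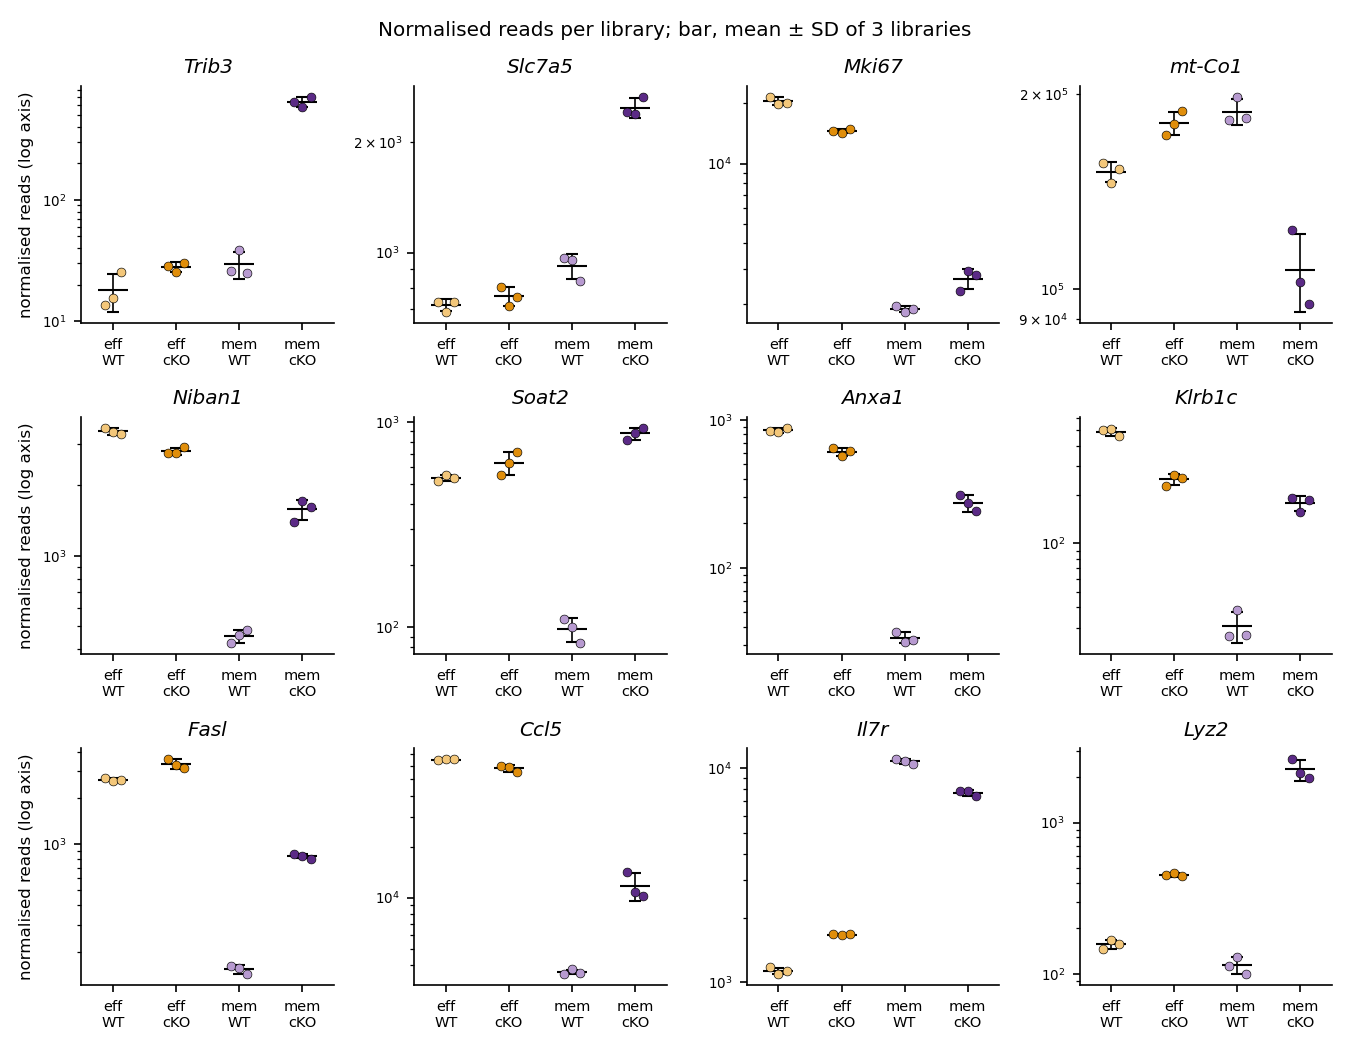
Normalised reads of 12 genes are plotted for every library on a log axis, with the mean and SD of 3 libraries per group; eff is effector, mem is memory. Scales are set within each subset, so only WT and cKO of the same subset are to be compared. Trib3, Slc7a5, Soat2 and Lyz2 stand out in memory cKO libraries, Niban1, Anxa1, Klrb1c, Mki67 and Ccl5 go down in effector and up in memory cKO libraries, and mt-Co1 and Il7r do the reverse.

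Genes that mark naive, stem-like and central memory cells went the other way. Of 25 tested, 13 had a lower and 2 a higher effect in memory cells, against 4.24% and 6.85% of all genes. The median difference was -0.30. Il7r, the receptor gene for interleukin 7, rose in effector and fell in memory cells. It had 1174, 1094 and 1127 and 1674, 1666 and 1677 normalised reads in effector WT and cKO, and 11048, 10837 and 10449 and 7807, 7863 and 7389 in memory WT and cKO libraries. The groups did not overlap in either subset, with log2 effects of 0.56 in effector and -0.49 in memory cells and a difference of -1.05 (SE 0.07, adjusted p = 2.9e-08). Bcl2, the survival gene downstream of that receptor, rose in both subsets but less in memory cells: from 699.5 ± 25.3 to 2207 ± 45.2 in effector and from 3701 ± 169.9 to 7079 ± 151 in memory cells, a difference of -0.72 (SE 0.08, adjusted p = 5.1e-06). Dapl1, a gene of resting T cells, fell in memory cells from 1599 ± 101 to 304 ± 59.3 and had 24.9 ± 8.09 and 12.5 ± 3.32 in effector WT and cKO, a difference of -1.49 (SE 0.32, adjusted p = 0.005).

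Some transcription factor genes of the same list also had a lower effect in memory cells. Tcf7, which encodes TCF-1, had log2 effects of -0.32 in effector and -0.62 in memory cells, both called, and a difference of -0.30 (adjusted p = 0.016). Lef1 had a difference of -0.49, Foxo1 of -0.58, Myb of -1.11 and Satb1 of -0.65. The exceptions were Cxcr3, a receptor for inflammatory chemokines (0.61), and Il2rb. Il2rb, the β chain of the receptors for interleukins 2 and 15, had 7813, 7823 and 7698 normalised reads in memory WT and 17937, 17482 and 18135 in memory cKO, and 9972, 10125 and 9895 and 12439, 12217 and 11724 in effector cells. Every cKO library lay above every WT library in both subsets, by 2.3-fold in memory and 1.21-fold in effector cells, a difference of 0.92 (SE 0.07, adjusted p = 1.0e-07).

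Receptors and feedback genes of cytokine signalling were split. Of 27 cytokine receptors, 8 were higher and 6 lower, against 6.85% and 4.24% of all genes. Il12rb2, the inducible interleukin 12 receptor chain, was higher with a difference of 1.57 (SE 0.11, adjusted p = 1.8e-08) and Il18rap, a chain of the interleukin 18 receptor, with 0.84 (SE 0.09, adjusted p = 3.8e-06). Il6st, the shared gp130 chain, crossed from 0.40 in effector to -0.53 in memory cells. Cish, a STAT5-induced inhibitor of cytokine signalling, rose from 62.6 ± 15.7 to 353 ± 29.5 normalised reads in memory and from 444 ± 57.8 to 727 ± 61.6 in effector cells, a difference of 1.79 (SE 0.21, adjusted p = 1.4e-05). Socs2, of the same family, passed in memory cells only (2.47 against -0.07), with a difference of 2.53 (SE 0.37, adjusted p = 1.4e-04).

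Of 21 integrin and adhesion genes, 10 had a higher effect of genotype in memory than in effector cells and 1, Itga6, a lower one (-0.77). Among all genes, 6.85% were called higher and 4.24% lower. Itga1, the collagen-binding CD49a chain, had 34.6, 19.3 and 25.00 normalised reads in memory WT and 214, 251 and 283 in memory cKO, and 1154, 1029.7 and 1055 and 1346, 1425 and 1456 in effector WT and cKO. It was higher in every cKO library, 9.48-fold in memory and 1.31-fold in effector cells, with a difference of 2.84 (SE 0.21, adjusted p = 7.3e-08). Itgb1, the β1 chain that pairs with it, fell in effector cells from 22082 ± 641 to 12501 ± 536 and did not pass in memory cells (0.15), a difference of 0.97 (SE 0.08, adjusted p = 2.7e-07).

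Of 20 annexin, S100 and galectin genes, 8 were higher and 12 not called, against 6.85% of all genes called higher and 4.24% lower. Anxa1, a phospholipid-binding protein gene of effector T cells, had 842, 825 and 886 normalised reads in effector WT and 644, 569.6 and 621 in effector cKO, and 36.8, 31.5 and 32.7 and 311, 273 and 241 in memory WT and cKO. The genotypes were separated in both subsets and in opposite directions, and the difference was 3.46 (SE 0.15, adjusted p = 2.0e-10). Lgals3, the galectin 3 gene, crossed from -0.35 to 1.90 and S100a6 from -0.24 to 0.76. Chemokine receptor and homing genes were split, 6 higher and 5 lower of 22, the latter 3 without any 1 of the effector WT libraries, effector cKO replicate 1 or 2, or memory WT replicate 2 or 3. Ccr2, a receptor for inflammatory chemokines, crossed upward with a difference of 1.27 (SE 0.07, adjusted p = 4.2e-09). Gpr55, a lysophospholipid receptor gene, fell in both subsets but far less in memory cells. It had 339, 327 and 336 normalised reads in effector WT, 38.6, 50.9 and 47.6 in effector cKO, 314, 325 and 313 in memory WT and 203, 234 and 229 in memory cKO, a difference of 2.34 (SE 0.17, adjusted p = 5.1e-08).

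Lipid genes moved both ways. Soat2, the enzyme that esterifies cholesterol in the endoplasmic reticulum, had 109, 100.5 and 83.7 normalised reads in memory WT and 818, 885 and 933 in memory cKO libraries. In effector cells it had 517, 552 and 533 in WT and 551, 631 and 714 in cKO, where 1 cKO library lay below the highest WT library. The difference was 2.93 (SE 0.15, adjusted p = 9.8e-10). Of 31 sterol and fatty acid synthesis genes, 4 were higher and 5 lower, against 6.85% and 4.24% of all genes. The lower count was 3 without effector WT replicate 1 or 3 or memory WT replicate 1. Among the lower ones, Insig1, which holds back SREBP processing, crossed from 0.23 to -0.65, and Hmgcs1 and Srebf2, a synthesis enzyme and a transcription factor of the cholesterol arm, fell in memory cells and did not pass in effector cells. The 4 higher ones, Scd2, Acaca, Fasn and Fads2, act on fatty acids. Scd2, a fatty acid desaturase gene, fell in effector cells from 2128 ± 48.6 to 1116 ± 26.9 and did not pass in memory cells (0.22), a difference of 1.15 (SE 0.09, adjusted p = 6.1e-08).

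Other metabolic and stress lists differed in how many members were called, against 6.85% of all genes called higher and 4.24% lower. Of 23 glycolysis genes 3 were higher (13.0%) and 20 not called, with 5 higher without memory cKO replicate 1, and of 25 genes of the tricarboxylic acid cycle 1 was higher (4.0%) and 24 were not called. Slc16a3, a lactate exporter gene, was the largest of these, with log2 effects of 0.00 in effector and 1.17 in memory cells and a difference of 1.17 (SE 0.27, adjusted p = 0.0077), lost in the fit of all 18 libraries. Among 26 genes of the endoplasmic reticulum unfolded protein response 8 were higher (30.8%) and 1, Dnajb9, lower. The higher count was 5 without any 1 of 6 libraries: effector WT replicate 2 or 3, effector cKO replicate 2 or 3, memory WT replicate 3 or memory cKO replicate 2. Some of the 8 fell in effector cells and did not pass in memory cells, such as the chaperone genes Pdia4 (-0.39 and 0.03) and Sdf2l1 (-0.40 and 0.24), whereas Dnajb9 crossed from 0.32 to -0.39. Among 22 genes that restrain growth under nutrient or energy shortage 1 was higher and 5 lower (22.7%). Sesn2, a sestrin gene driven by ATF4, was the higher one (0.93), while its paralog Sesn1 crossed from 0.26 to -0.36. Interferon-stimulated genes had 2 of 39 higher (5.13%) and 4 lower (10.3%). The plot of list medians shows these lists near 0 in both subsets, with the neutrophil and chemokine lists farthest to the higher and the erythroid and mitochondrially encoded lists farthest to the lower side.

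**Figure D4:**
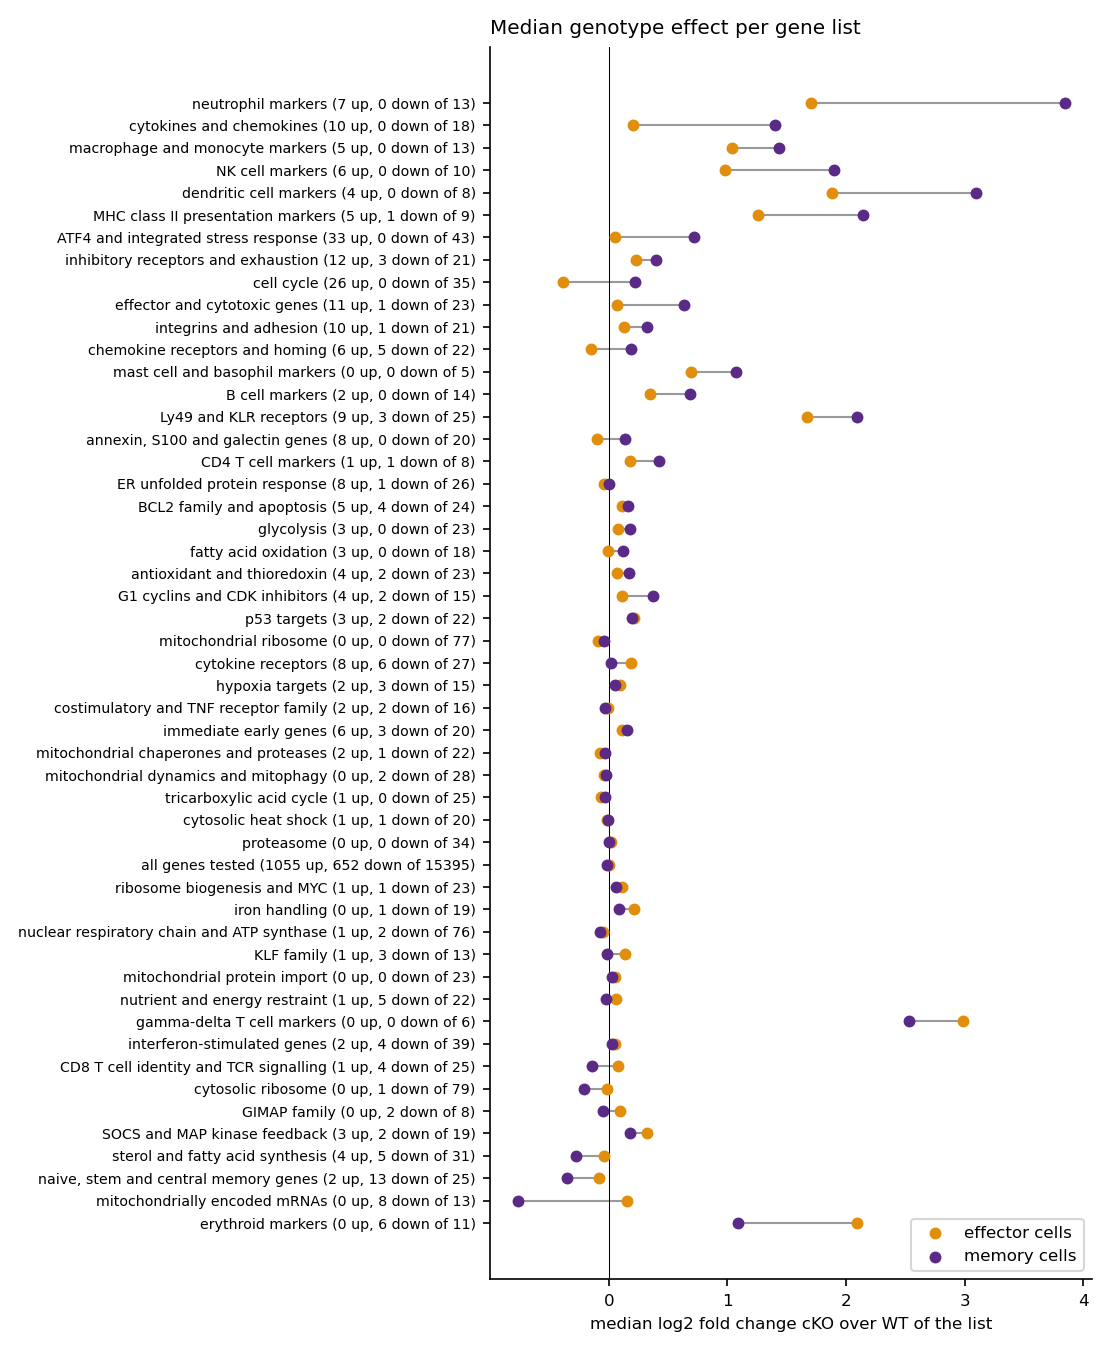
For each gene list with at least 5 tested members, the median log2 fold change of cKO over WT is plotted for effector cells (orange) and memory cells (purple), ordered by the median difference. Numbers beside each name give the members called up (a higher effect in memory cells) and down (a lower one) of those tested; all 15395 genes tested stand at about 0 in both subsets, with 1055 up and 652 down.

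Further genes with large differences lay outside these lists. Plxnb2, a semaphorin receptor gene, had 120.5, 132 and 77.5 normalised reads in effector WT, 59.9, 73.6 and 69.9 in effector cKO, 13.4, 21.3 and 22.1 in memory WT and 189.8, 172 and 164 in memory cKO, so that cKO was below WT in effector and above WT in memory cells. Its difference was 3.83 (SE 0.32, adjusted p = 2.7e-07). Notch3, a Notch receptor gene, crossed from -0.39 to 2.51. Arap3, a GTPase-activating protein gene, and Emilin2, an extracellular matrix gene, passed in memory cells only, with differences of 2.84 (SE 0.24, adjusted p = 3.7e-07) and 3.06 (SE 0.25, adjusted p = 1.8e-07). On the lower side, Igf1r, the insulin-like growth factor 1 receptor gene, had 419, 322 and 362 normalised reads in memory WT and 136, 199 and 216 in memory cKO, and 16.6, 9.34 and 12.6 and 27.4, 25.4 and 36.5 in effector cells. The fall in memory cells and the rise in effector cells were each without overlap, and the difference was -2.18 (SE 0.33, adjusted p = 1.9e-04). F2rl1, the protease-activated receptor 2 gene, crossed from 0.72 to -0.87, a difference of -1.60 (SE 0.10, adjusted p = 7.4e-09). App, the amyloid precursor protein gene, rose in effector cells (1.73) and did not pass in memory cells (-0.25), a difference of -1.99 (SE 0.25, adjusted p = 2.8e-05).

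Zbtb32, a transcriptional repressor gene of activated lymphocytes, fell in both subsets and more in memory cells (-1.63 against -0.19). Tent5a, a poly(A) polymerase gene, and Ppm1h, a phosphatase gene, rose in effector and fell in memory cells, with differences of -1.02 (SE 0.11, adjusted p = 7.1e-06) and -0.73 (SE 0.08, adjusted p = 9.0e-06). A pair of T cell receptor segments also separated the subsets. Trav14-1 had 125, 113 and 108 normalised reads in effector WT and 514, 521 and 543 in effector cKO, against 112, 131 and 115 and 93.5, 117 and 63.7 in memory WT and cKO, and its difference was -2.61 (SE 0.24, adjusted p = 8.8e-07). The genotypes stood well apart in effector cells only. Trbv2, a β chain segment, did likewise, with log2 effects of 1.89 in effector and -0.05 in memory cells and a difference of -1.94 (SE 0.17, adjusted p = 3.5e-07). Near-identical segments share reads, so the value of a single segment is uncertain.

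Most natural killer receptor genes rose in both subsets, with unequal sizes. Of 25 genes of the Ly49 and KLR families, 19 rose in effector and 20 in memory cells, against 9.83% and 11.6% of all genes. For the difference 9 were higher and 3 lower, against 6.85% and 4.24% of all genes. In the fit of all 18 libraries 5 were higher, and without memory cKO replicate 1, 5 were lower. The Klrc genes, which encode NKG2 receptors, were among the higher ones: Klrc2 rose from 282 ± 18.6 to 1443 ± 129 normalised reads in memory and from 1622 ± 41.1 to 2100.2 ± 116 in effector cells, a difference of 1.98 (SE 0.10, adjusted p = 1.0e-09), lost in the fit of all 18 libraries. Klrb1c, the NK1.1 gene, had 506, 509 and 458 normalised reads in effector WT, 227, 265 and 254 in effector cKO, 26.8, 38.6 and 26.9 in memory WT and 189.8, 156 and 185 in memory cKO. It was lower in every cKO library of effector cells and higher in every cKO library of memory cells, a difference of 3.48 (SE 0.21, adjusted p = 4.3e-09). On the lower side, Klra10 and the pseudogene Klra13-ps rose in both subsets and more in effector cells, by 3.29 and 3.40 there against 1.21 and 1.29 in memory cells. These families hold near-identical copies, and how reads shared between copies were counted is not given in the sources used here, so the value of a single member is uncertain.

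Markers of other cell types moved with genotype in both subsets, and their part in the results above was not tested. The summed level of 14 neutrophil markers was 18.5 to 21.01 CPM (reads scaled to library totals) in effector WT and 60.6 to 68.0 in effector cKO, and 19.9 to 23.9 in memory WT and 243 to 326 in memory cKO, with Ly6g at 0 in memory WT. Of 13 tested neutrophil markers, 7 had a higher effect in memory cells, against 6.85% of all genes, and 6 were not called. Their median difference was 2.37. Macrophage and monocyte markers summed to 159.7 to 169.7 CPM in effector WT and 213 to 220.3 in effector cKO, and 162 to 179 in memory WT and 485 to 590 in memory cKO, with 5 of 13 tested higher for the difference. Class II antigen presentation markers summed to 169 to 177 and 422 to 438 in effector WT and cKO, and 453 to 521 and 1724 to 2085 in memory WT and cKO. No list of these 3 overlapped between genotypes in either subset. That separation was not particular to them. Of the 11 lists of markers of other cell types, only the platelet sums overlapped between genotypes, and only in memory cells.

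NK cell markers, which share Klra4, Klra8, Klra9 and Klrb1c with the Ly49 and KLR list and Gzma with the cytotoxic list, also moved with genotype. Of 10 tested, 6 had a higher effect in memory cells (60%), against 6.85% of all genes, and 4 were not called. The median difference was 0.91, and 3 were higher in the fit of all 18 libraries. They summed to 146 to 170.4 CPM in memory WT and 231 to 259 in memory cKO, and to 4404 to 4713 in effector WT and 4714 to 5317 in effector cKO. The memory genotypes were apart, and in effector cells the highest WT and the lowest cKO library nearly met. Tyrobp and Fcer1g, signalling adaptor genes of NK and myeloid cells, rose in both subsets and more in memory cells, with differences of 1.70 (SE 0.23, adjusted p = 5.7e-05) and 1.71 (SE 0.42, adjusted p = 0.012). Ncr1, the NKp46 receptor gene, rose in both subsets and was not called for the difference (-0.24).

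Lyz2, the lysozyme gene of myeloid cells, had 146, 166 and 157 normalised reads in effector WT, 447, 465 and 439.9 in effector cKO, 113, 129.9 and 99.996 in memory WT and 2645, 2135 and 1966 in memory cKO, a difference of 2.76 (SE 0.16, adjusted p = 3.8e-09). Siglech, a marker of plasmacytoid dendritic cells, had 18.98, 11.2 and 19.2 in memory WT and 709.7, 621 and 616 in memory cKO, and 21.8, 23.9 and 11.6 and 48.7, 49.96 and 28.4 in effector cells, a difference of 4.13 (SE 0.41, adjusted p = 2.0e-06). Chil3, a chitinase-like gene of myeloid cells, had a difference of 3.38 (SE 0.43, adjusted p = 4.0e-05). Each of these 3 genes was higher in every cKO library of both subsets, and most in memory cells. Dendritic cell markers summed to 194.1 to 196.0 CPM in memory cKO against 42.3 to 48.2 in memory WT, and 805 to 827 against 699 to 716 in effector cells.

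Erythroid markers had the reverse difference. Hba-a1, the α-globin gene, had 52.96, 47.7 and 50.4 normalised reads in effector WT, 479.9, 486 and 447 in effector cKO, 105, 179.6 and 139 in memory WT and 338, 284 and 269 in memory cKO. It rose in both subsets and more in effector cells, a difference of -2.11 (SE 0.22, adjusted p = 4.4e-06), and 6 of 11 erythroid markers were lower for the difference. In the fit of all 18 libraries by limma, 0 of the 11 were called, and the calls of Hba-a1 (adjusted p = 0.30) and Hbb-bs (0.51) were lost. The B cell sum was 225 to 233 CPM in effector WT and 299.9 to 313 in effector cKO. In memory cells it was 755 to 834 in WT and 953 to 1113 in cKO. Of 14 B cell markers 2 were higher for the difference, against 6.85% of all genes called higher and 4.24% lower. Gamma-delta T cell markers rose in effector cells in 6 of 6 tested, against 9.83% of all genes, and in memory cells in 4 of 6, against 11.6%. For the difference, 0 of these markers were called by limma, with 1 in each direction at an unadjusted p under 0.05, and 1 by DESeq2. The CD8 T cell identity and TCR signalling list had 1 of 25 higher and 4 lower, with 9 lower without memory cKO replicate 1. Cd3e, a chain of the CD3 complex, had a difference of -0.32 (SE 0.08, adjusted p = 0.012). Cd8b1, the β chain of CD8, had 1275 to 1318 CPM in effector WT, 778 to 807 in effector cKO, 885 to 971 in memory WT and 505 to 600.04 in memory cKO libraries, lower in cKO in both subsets.

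**Figure D5:**
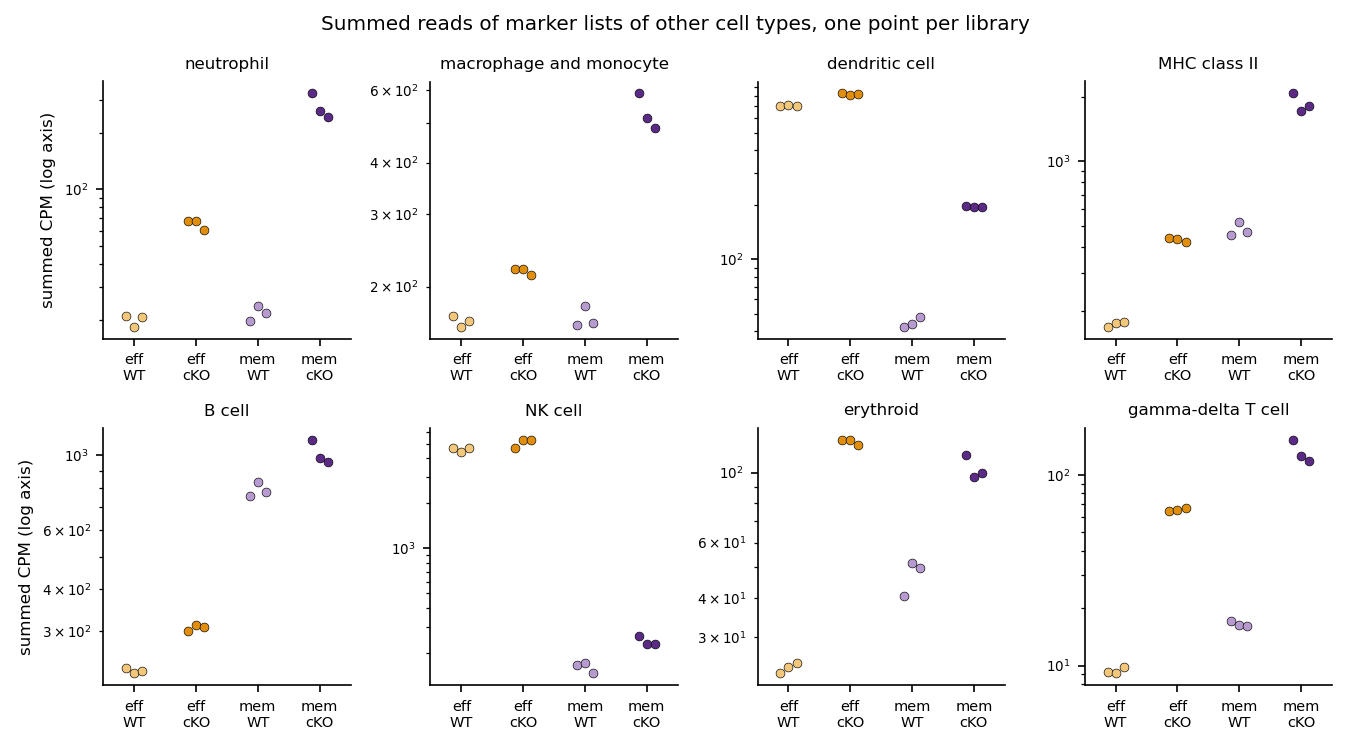
Summed CPM of 8 marker lists of other cell types are plotted on a log axis, 1 point per library, in effector (eff) and memory (mem) cells. The neutrophil and erythroid sums are higher in cKO than in WT in both subsets. In memory cells the neutrophil sum is 243 to 326 in cKO against 19.9 to 23.9 in WT.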

How the data were processed

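Per the submitters' processing notes, the tools were HISAT2 2.2.1, fastp, DESeq2 1.42.0 and featureCounts 2.0.6, with the mouse build GRCm39; their order and settings, the annotation and the strand setting are not given in the sources used here, so reads of overlapping antisense genes cannot be told apart. The authors deposited 1 table per subset with a normalised signal value per gene and library, scaled within that table. Beside these values the deposited tables hold, for each gene, a log2 ratio of the genotypes and its p-value, which were not used. For effector and memory cells, 100% of the signal values were whole multiples of the worth of 1 read, within 1e-05, so whole reads were recovered for CPM, edgeR and DESeq2.

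Each effect and the difference of effects were tested with limma 3.58.1 in R 4.3.3, with its intensity trend, on the log2 of normalised reads plus a pseudocount of 1. A gene was tested if 3 or more of the 12 libraries held 10 or more normalised reads; fold changes on that scale understate the change of low genes. The difference is the interaction term of 4 group means over the 12 libraries, and each effect alone comes from the 6 libraries of its subset. Genes were called at a Benjamini-Hochberg adjusted p under 0.05. The procedure was also run on simulated counts, with a common coefficient of variation for all genes of a subset and changes planted in memory cKO only. No change was planted in effector cells, so that run does not check genes that change in both subsets. Alternatives were another pseudocount (10), no filter, a filter at 50, all 18 libraries, array weights, edgeR 4.0.16, DESeq2 1.42.0, scaling to totals, TMM within each subset, replicate blocks, and each library left out.

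Genes were sorted into 40 pathway lists and 11 lists of markers of other cell types. Named genes were Hspa9, the 12 largest called differences per direction among known genes whose mean log2 CPM was 2 or more and whose genotypes did not overlap in 1 or both subsets, the 6 crossing genes per direction with the smallest adjusted p under the same conditions, and, for lists with 3 or more calls, up to 4 called members by smallest adjusted p. Other list members named were chosen after their values were seen. Some genes that this rule would name are not reported here. The members, lists and tests were chosen with earlier results of these data known.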

Additional observations from a re-analysis of the deposited data

Results flagged for a closer look

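The genotype effect differed between effector and memory cells by a test of the difference itself for 1707 genes, and for 154 of these the effect passed in both subsets with opposite signs. The count of 154 fell to 96 without memory WT replicate 1 and to 88 without memory WT replicate 3. The log2 share of reads from the mitochondrial chromosome also differed between the subsets, by -0.87, at the smallest p that permuting genotype within each subset can give. The cause of these differences was not tested.

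Genes listed in a single table could not enter the comparison. Of these, 14 passed the filter on low values with the effector table alone and 15 with the memory table alone. Stmn2, a stathmin gene, had 34.3, 38.4 and 34.9 normalised reads in effector WT and 6.09, 12.7 and 12.2 in effector cKO libraries, and Dmbt1, a scavenger receptor gene, had 27.9, 23.3 and 32.7 in memory WT and 3.89, 5.77 and 3.75 in memory cKO libraries. Both were chosen after their values were seen, and neither was tested.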

How the results depend on the processing

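Across the alternatives, 1235 to 2008 genes were called, and every called gene shared with the reported set kept its sign. Leaving out each library in turn gave 1275 to 2008 genes called, 811 to 1160 higher, 464 to 854 lower, and 88 to 177 with opposite effects, the last being 96 without memory WT replicate 1 and 88 without memory WT replicate 3, against 154. Scaling to library totals lowered the count of lower genes to 434 (1428 higher), and the fit of all 18 libraries gave 97 genes with opposite effects. In a joint fit of the 12 libraries, 1791 genes were called in effector cells in place of 2774, and 3648 in memory cells in place of 2800. By edgeR 1749 genes were called (1091 higher, 658 lower) and by DESeq2 1915.

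Libraries with the same replicate number did not deviate together: correlations of deviations were -0.111 to 0.0704 between WT and cKO and 0.00563 to 0.0424 between effector and memory cells, so the numbers were not taken to pair the samples. With a replicate block of same-numbered WT and cKO libraries, 1235 genes were called, 811 higher and 424 lower, with 108 opposite. With the replicate block across subsets the counts were 1563, 959, 604 and 154.

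Among lists, the cell cycle count of 26 higher was 17 and the count for inhibitory receptors and exhaustion of 12 was 7 in the fit of all 18 libraries. Without memory cKO replicate 1, 41 genes of the cytosolic ribosome list were lower in place of 1, and 8 of the nuclear respiratory chain and ATP synthase list in place of 2. Of 149 named genes, 120 were called under all settings, and of 3424 values of a gene under a setting 87 lost the call and 0 changed sign. Replicate spread was wider in memory than in effector cells, and genes with few reads in 3 of the groups, such as Nupr1, have wide intervals.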
